A study of Coprinopsis cinerea with 4 samples.

Results

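The genome of the mushroom Coprinopsis cinerea carries DNA transposons of the Kyakuja and Dileera families, and the regions described here are the gene regions that lie beside them. A gene region was included if the deposited table classed it as orthologous, paralogous or orphan, if it did not overlap a Kyakuja or Dileera row, and if it lay within 10000 bp of one on the same chromosome. Regions within 100000 bp of a centromere row or of either end of the listed part of a chromosome were left out. This gave 486 flanking regions of the 13236 gene regions in the table. Of 235 transposon loci, 130 were the nearest locus of at least 1 flanking region. The flanking regions lie on 12 of the 13 chromosomes, with none on chromosome 8 and the most on chromosome 4 (77), chromosome 6 (68) and chromosome 9 (66). Regions around the same transposons are not independent, and when transposon rows less than 10000 bp apart are chained the 486 regions fall into 61 clusters of 1 to 24 regions (median 7).

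Kyakuja and Dileera are related families of DNA transposons, which move as DNA with the help of a transposase that the element encodes. In mushroom-forming fungi many of these elements also carry genes of the TET/JBP family, dioxygenases named for the TET enzymes that oxidise methylated cytosine, and the fungal TET/JBP genes have multiplied with them. The table lists the parts of the elements as separate rows, named for the transposase, TET/JBP, HMG (a DNA-binding box), cys and alpha-helix parts. Orthologous genes are shared with other species by descent, paralogous genes are copies within a genome, and orphans have no recognised relatives. The sources used here do not say how the authors drew these classes.

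RNA of strain okayama7#130 was compared between oidia, which are asexual spores, and hyphae, the vegetative filaments, with 2 libraries of each stage. The labels name no treatment and no other genotype. Both stages were poly(A)-selected. Libraries of oidia were made with a SOLiD kit and those of hyphae with an Illumina kit, so that kit and stage cannot be told apart in any difference given here. Reads in genes numbered 4586306 and 3546635 in hyphae 1 and 2 and 7519091 and 6128727 in oidia 1 and 2. Nothing in the labels says that replicates came from separate cultures, so p-values here rest on a spread between libraries that could be technical alone. Levels are reads per kb per 1000000 TMM-scaled reads, TMM being a correction for libraries dominated by a few genes, and log2 fold changes are hyphae over oidia. Regions are called by the locus tag of the RefSeq gene they overlap (assembly CC3). A region was within 3 bases of a RefSeq gene at both ends for 452 of the 486, and the reference gives no product names, so no function is stated for any of them. Coordinates are those of the deposited table.

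Most of the flanking regions had few or no reads in oidia. At least 1 oidia read was present in 169 of 486 flanking regions (34.8%), against 87.0% of the 11039 other gene regions that lie outside the left-out chromosome ends and centromeres. Hyphal reads were present in 84.4% of flanking regions and 98.2% of the others. In 243 flanking regions there were reads in hyphae and none in oidia, in 2 there were reads in oidia and none in hyphae, and 74 had no read in any library. Among the 11039 other gene regions these counts were 1263, 36 and 168, so reads in hyphae alone outnumbered reads in oidia alone there too. TMM-scaled library sizes were 7863179 and 6046718 in hyphae and 4431984 and 3557125 in oidia. The part this plays in the regions without oidia reads was not tested. The median level was 0.263 and 0.136 in hyphae 1 and 2 and 0 in both oidia libraries, against 6.65, 6.52, 5.00 and 4.98 in the other gene regions. In bulk samples fewer cells that express a gene and less RNA per cell cannot be told apart.

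The class of the region went with these shares. The flanking regions were 63.0% paralogous, 25.1% orphan and 11.9% orthologous, whereas the other gene regions were 23.8%, 28.3% and 47.9%. Among the 306 paralogous flanking regions, 20.9% and 21.9% had a read in oidia 1 and 2, against 68.4% and 67.2% of the other paralogous regions. Orphan flanking regions stood at 32.8% and 33.6%, against 76.3% and 74.8% of the other orphans. The 58 orthologous flanking regions were close to their class, with a read in 89.7% of them in either oidia library against 96.5% and 96.3%. Their median level was 11.3 and 12.0 in hyphae and 14.5 and 11.7 in oidia, which is also near the medians of other orthologous regions (14.2, 14.2, 12.7 and 12.7). The sources used here do not say how reads mapping to several places were treated, and the part this plays in the low counts of paralogous regions was not tested.

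**Figure D1:**
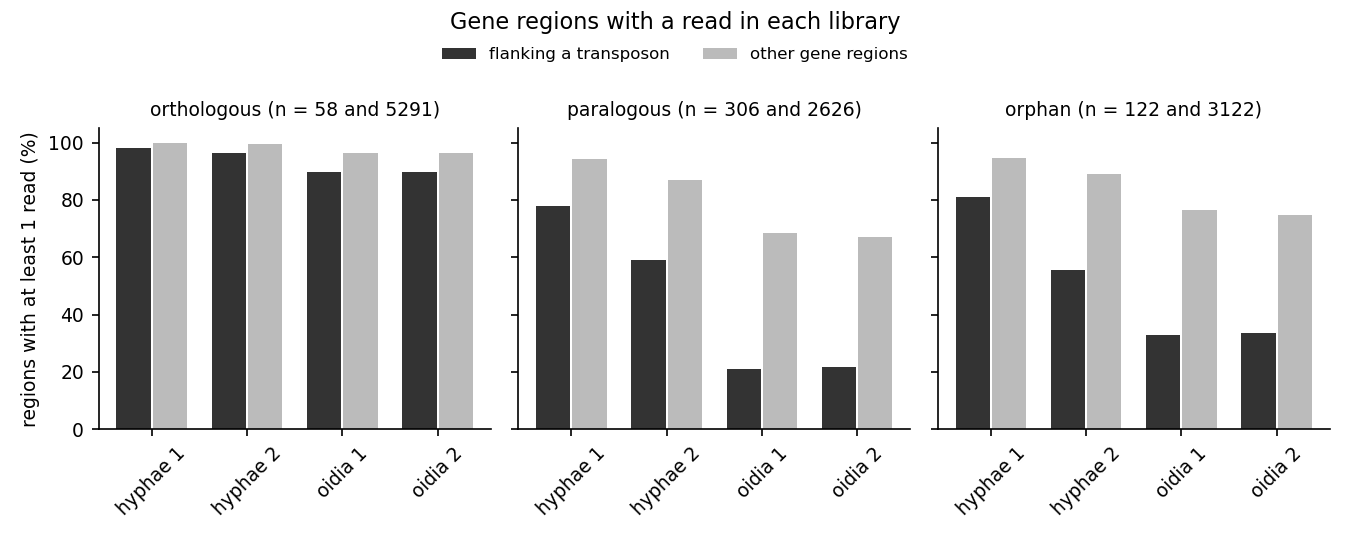
Share of gene regions with at least 1 read (y axis, percent) in each of the 4 libraries (x axis), for regions flanking a Kyakuja or Dileera row (dark bars) and other gene regions (light bars), by class. In oidia 1 a read was present in 20.9% of paralogous flanking regions and 68.4% of other paralogous regions, while orthologous flanking regions stood at 89.7%.

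The share of regions with reads rose with distance from the transposons, past the limit of 10000 bp. A region counted as having enough reads to test if it passed edgeR's low-count filter, which 133 of the 486 flanking regions did (27.4%), against 77.3% of the other gene regions. Within 2 kb of a transposon row 13.3% of 196 regions passed, from 2 to 5 kb 24.4% of 135, and from 5 to 10 kb 47.7% of 155. Beyond the limit the share was 57.1% at 10 to 20 kb, 64.5% at 20 to 40 kb, 69.6% at 40 to 80 kb, 74.1% at 80 to 160 kb and 81.6% farther away. Within the paralogous class the steps were 9.22%, 15.6% and 32.0% inside the limit and 39.8%, 49.4%, 52.3%, 58.9% and 61.2% outside it. Orphans went from 18.4% and 8.0% in the 2 nearest bins to 39.6%, and then from 47.0% to 68.2% in the farthest bin. Orthologous regions were tested in 85.0% at 2 to 5 kb and in 96.9% at 5 to 10 kb, and stayed between 90.4% and 95.1% beyond, with 66.7% of 6 regions in the nearest bin. These shares describe 1 genome and carry no test.

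**Figure D2:**
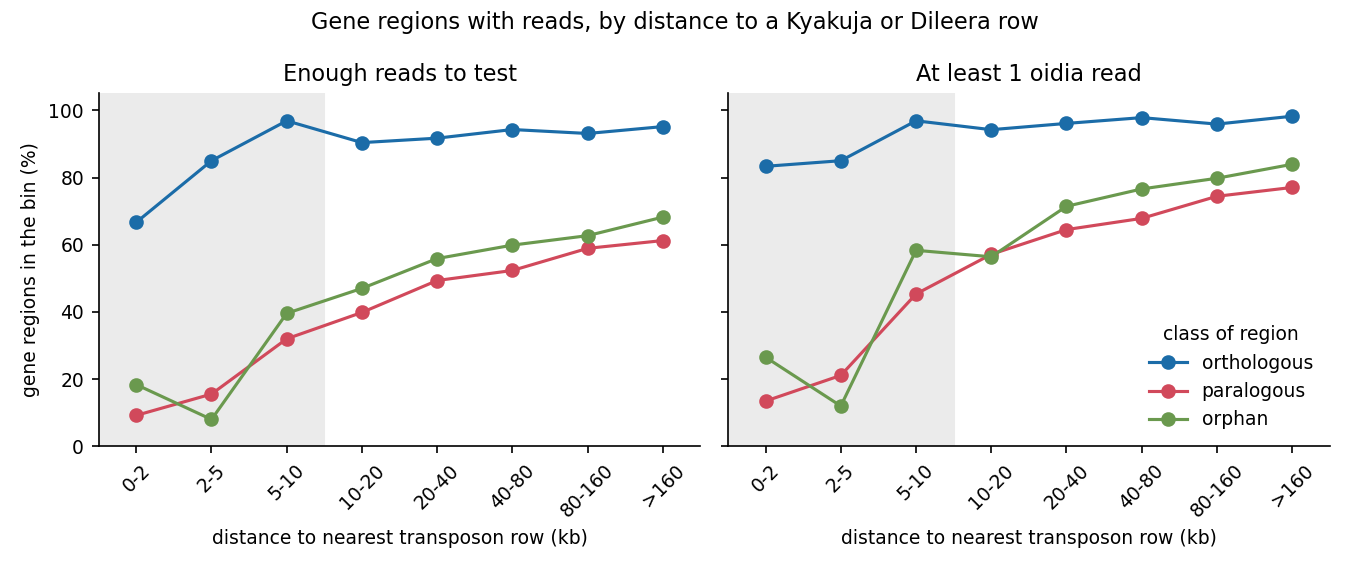
Percent of gene regions (y axis) with enough reads to test (left) and with at least 1 oidia read (right), by distance to the nearest Kyakuja or Dileera row in kb (x axis, unequal bins) and class; the grey band marks the flanking regions. The paralogous class climbs from 9.22% tested in the nearest bin to 61.2% in the farthest, and the orthologous class is at 85.0% or more from 2 kb on.

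The limit itself cut through regions of unlike level. The 3 flanking regions just inside it were CC1G_07440 (9873 bp from a row, no read), CC1G_10318 (9915 bp) and CC1G_12399 (9917 bp), of which the last is among the strongest oidia regions described below. Just outside lay CC1G_04132 (10040 bp) and CC1G_10205 (10174 bp), with 1 read in hyphae 1 each, and CC1G_02478 (10088 bp) with none.

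Regions enclosed by transposon rows had the fewest reads. In 89 flanking regions a transposon row lay within 10000 bp on each side, and 73 of these were paralogous and 16 orphan. Of the 89, 4 had an oidia read (4.49%) and 3 had enough reads to test, compared with 165 (41.6%) and 130 of the 397 flanking regions with rows on 1 side. The 397 include all 58 orthologous regions and are longer (median 1293 against 807 bp). Within classes an oidia read was present in 5.48% of enclosed paralogous regions against 29.2% of the others, and in 0% against 41.5% of orphans. The largest cluster, 15 rows over chr2:3310660-3362396 with Kyakuja transposase, TET/JBP, HMG, cys and alpha-helix parts, had 24 flanking regions that together held 54 hyphal and 3 oidia reads. In 20 of the 61 clusters no flanking region had enough reads to test, and in 19 none had an oidia read.

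The family of the nearest transposon went with the same shares. The nearest row was Kyakuja for 394 flanking regions, in 53 clusters, and Dileera for 92, in 17 clusters, with some clusters counted for both. Regions of a cluster are not independent, so the Dileera shares rest on few places in the genome. An oidia read was present in 27.9% of the former and 64.1% of the latter, and 21.3% and 53.3% had enough reads to test. By part, the share tested was highest next to Dileera transposase rows (45 of 71, 63.4%), intermediate next to TET/JBP rows (24 of 76, 31.6%) and Kyakuja transposase rows (23 of 76, 30.3%), and lower next to cys rows (17 of 86, 19.8%), Dileera alpha-helix rows (4 of 21, 19.0%), Kyakuja alpha-helix rows (11 of 72, 15.3%) and HMG rows (9 of 79, 11.4%). The classes are unequally shared between the families, with 38 orthologous regions next to Kyakuja and 20 next to Dileera, but the difference was also present in paralogous regions (14.9% of 268 against 28.9% of 38 tested) and in orphans (12.5% of 88 against 55.9% of 34). Overlap with a repeat row went with little difference, since 29.6% of the 216 flanking regions that overlapped one and 25.6% of the 270 others had enough reads.

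The 315 flanking regions with no oidia read and too few reads to test held 1.61 reads per kb in hyphae 1 and 0.680 in hyphae 2, a ratio of 1.82 after TMM scaling. They were chosen for having few reads, and why the ratio differed between sets was not tested. All 317 flanking regions with no oidia read stood at 1.43. The ratio was 1.02 in flanking regions with an oidia read (119.5 and 90.3 reads per kb), 1.07 in the 2 tested flanking regions with none, and 1.02 in the other gene regions with none (11.6 and 8.73 reads per kb). Repeat and centromere rows with no oidia read (790 rows, 0.846 and 0.357 reads per kb) also stood at 1.82, whereas all 1038 repeat, retroelement and centromere rows together stood at 0.834 (6.55 and 6.04 reads per kb).

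**Figure D3:**
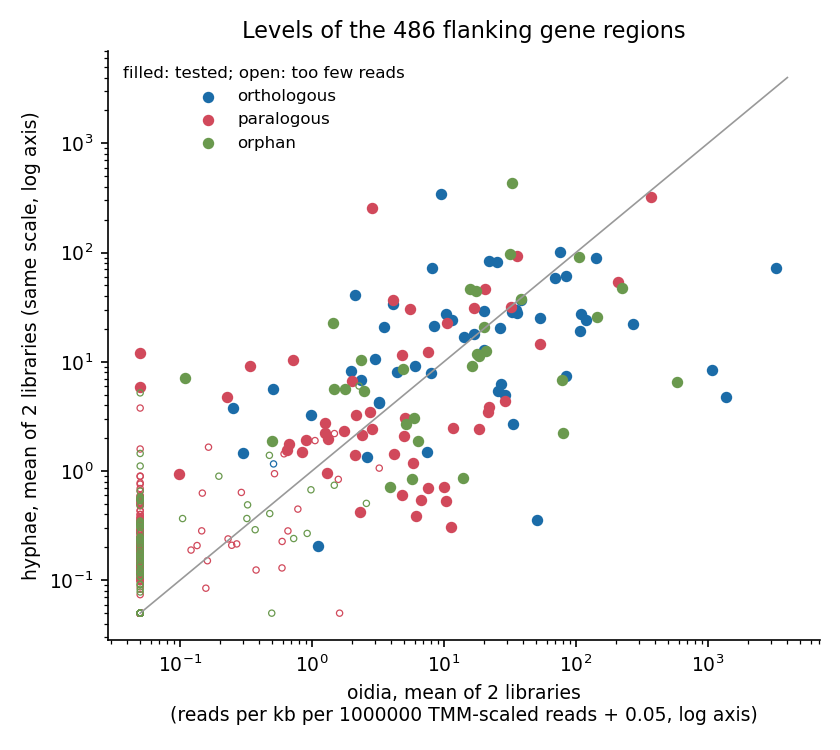
Mean level in hyphae (y axis) against mean level in oidia (x axis) for the 486 flanking regions, in reads per kb per 1000000 TMM-scaled reads plus 0.05, both axes logarithmic; filled points had enough reads to test, open points did not, and the line marks equal levels. Open points stack at the left edge, where oidia reads are 0, and the filled points lie on both sides of the line.

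Among the 133 flanking regions with enough reads, the stages differed in most, in both directions. In edgeR's quasi-likelihood test, with Benjamini-Hochberg adjustment over all 9622 region and element rows tested and a threshold of 0.05, 55 were higher in hyphae (41.4%, where 44.1% of all tested gene regions were) and 59 were lower (44.4%, where 40.0% were). Changes of at least 4-fold were found in 23 upward (17.3%, where 19.7% of all were) and 36 downward (27.1%, where 16.0% were). The median log2 fold change was -0.03, beside 0.12 over all tested gene regions. A region that is high in 1 stage passes the filter through that stage, so these counts describe the 133 regions and not the 486. The balance depends on the scaling. With TMM factors 48.2% of the calls were upward, where 52.4% over all gene regions were. With total gene counts 71.3% were (87 higher, 35 lower), where 81.4% over all gene regions were. The median of all tested gene regions itself moved from 0.12 to 1.67.

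By class, 22 of 52 tested orthologous flanking regions were higher in hyphae and 23 lower (43.3% and 41.0% of all tested orthologous regions). Paralogous flanking regions counted 21 higher and 20 lower of 51 (48.4% and 33.8% in the class), and orphans 12 higher and 16 lower of 30 (42.6% and 42.5% in the class). With total gene counts the 3 classes counted 36 higher and 14 lower, 32 and 13, and 19 and 8. No class therefore had more lower than higher calls under every scaling. Upper-quartile factors and total gene counts moved the calls of all gene regions upward as well, from 52.4% with TMM factors to 58.5% and 81.4%. The turns given here and below are thus in plain counts, and a lean relative to all gene regions was not tested. By distance and family the shares to set beside the TMM counts are those of all tested gene regions, 44.1% higher and 40.0% lower. Here 19 of 36 tested regions within 3000 bp of a transposon row were higher and 9 lower, and 36 of 97 farther out were higher and 50 lower. With upper-quartile factors these splits were 22 and 9 near and 41 and 43 farther out, and with total gene counts 27 and 8 near and 60 and 27 farther out, so the downward lean of the outer regions flips. Next to Kyakuja rows 30 of 84 were higher and 39 lower, a lean that is absent with upper-quartile factors (36 and 35) and flips with total gene counts (50 and 25). Next to Dileera rows 25 of 49 were higher and 20 lower, and with total gene counts 37 and 10. Of the 12 tested orthologous regions whose nearest row is TET/JBP, 3 were higher and 9 lower, and with total gene counts 7 were higher and 4 lower. The other classes beside TET/JBP rows did not share this lean with TMM factors. Of 9 tested paralogous regions 5 were higher and 1 lower, and of 3 orphans 1 was higher and 1 lower. All 24 tested regions there counted 9 higher and 11 lower.

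Neighbouring flanking regions shared a direction about as often as neighbouring gene regions at large. In 47 pairs of adjacent flanking regions both were called, and 28 pairs (59.6%) went the same way, where 59.6% of 5598 adjacent pairs over all gene regions did. Of the 32 clusters with 2 or more called regions, 22 held both directions, 3 held higher and 7 lower regions alone under TMM scaling.

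The reads of flanking regions were concentrated in a few of them, more so in oidia. Flanking regions took 0.803% and 0.741% of gene region reads in hyphae 1 and 2 and 0.658% and 0.641% in oidia 1 and 2. The means were 0.772% ± 0.0441 and 0.650% ± 0.0118 (SD, n = 2 each) and the libraries did not overlap, with a two-sided exact permutation p of 0.333, the smallest that 2 against 2 allows. These are shares of unscaled reads, and the order turns with TMM scaling. Flanking regions held 40892 and 30633 reads in hyphae 1 and 2 and 54909 and 43951 in oidia 1 and 2. The TMM-scaled library sizes were 7863179 and 6046718 in hyphae and 4431984 and 3557125 in oidia, so relative to these sizes flanking reads were higher in oidia. The 10 strongest regions held 65.2% and 64.7% of the flanking reads in oidia, and 34.4% and 35.3% in hyphae. CC1G_00610 alone held 18.4% and 18.3% in oidia.

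The region with the highest level in oidia was CC1G_00610, an orthologous region at chr1:3370187-3370876, 5655 bp from a transposon row. Its level was 74.3 and 71.2 in hyphae and 3308 and 3276 in oidia, with a log2 fold change of -5.50 (SE 0.08). The second, CC1G_00609 (chr1:3366586-3367464, orthologous), stood at 3.91 and 5.46 in hyphae and 1382 and 1352 in oidia, and its log2 fold change of -8.21 (SE 0.12) was the largest fall among the tested flanking regions. Both belong to a run beside the same Dileera transposase row (chr1:3361521-3364531). The orphan CC1G_13750 between them rose from 6.91 and 6.13 in hyphae to 595.6 and 569.2 in oidia (log2 fold change -6.46, SE 0.14). CC1G_00608, the orphan next to the row, had 5 and 2 hyphal reads and 21 and 42 oidia reads (log2 fold change -3.93, SE 0.49, and -3.20 without oidia replicate 2). In each of these 4 regions both oidia libraries lay above both hyphal libraries. The transposase row itself was lower in hyphae, with levels of 19.4 and 20.4 against 55.7 and 55.5 in oidia (log2 fold change -1.48, SE 0.09), although with total gene counts it stood at 0.06. The run ended at CC1G_13751, an orphan with 40 and 26 hyphal reads and 4 and 12 oidia reads (log2 fold change 1.22, SE 0.43), whose call was lost with the Wald test and without 3 of the 4 libraries in turn, at adjusted p between 0.0504 and 0.319 (edgeR and DESeq2, Benjamini-Hochberg). Its log2 fold change was 1.17 with the Wald test, 1.10 and 1.32 without hyphae replicates 1 and 2, 0.49 without oidia replicate 1 and 2.35 without oidia replicate 2. CC1G_00611, which flanks the same transposase row, was also called lower in hyphae, by a small change (log2 fold change -0.21, SE 0.08). It turned to 0.051 with upper-quartile factors. On the other side of the row CC1G_00606, a paralogous region 216 bp from an alpha-helix row, had similar levels in the stages (34.9, 28.2, 31.2 and 33.7), and the 3 regions beyond it had at most 2 reads in any library.

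A second Dileera transposase row, chr6:1074499-1078938, had flanking regions that went against it. The row had levels of 5.79 and 5.14 in hyphae and 36.9 and 34.9 in oidia (log2 fold change -2.71, SE 0.10). CC1G_10322, an orthologous region that ends 146 bp from the row and is the nearest tested flanking region of all, had 80 and 63 hyphal reads and 0 and 4 oidia reads (log2 fold change 4.30, SE 0.50, edgeR with Benjamini-Hochberg, adjusted p = 1.71e-17). Without oidia replicate 1 the log2 fold change was 3.18, and without oidia replicate 2 no oidia read remains. So the transposase row was lower in hyphae and the region beside it higher, with no overlap between the stages in either. Farther out on that side, CC1G_10320 (log2 fold change 2.09, SE 0.33) and CC1G_10319 (3.57, SE 0.37) were higher in hyphae as well. CC1G_10318, at the limit of distance, had 53 and 42 hyphal reads and 1 in each oidia library, which gives 27.3-fold (95% exact interval 7.35 to 229, counting error only). On the other side the orphan CC1G_10324 had 27 and 20 hyphal reads and 5 and 2 oidia reads (log2 fold change 1.92, SE 0.56, and 2.55 without oidia replicate 1), a call lost with the DESeq2 Wald test and without hyphae replicate 1 (adjusted p = 0.0543 in DESeq2 and 0.0549 in edgeR, Benjamini-Hochberg). CC1G_10325, beside it, was among the 5 highest hyphal levels of the flanking regions at 100.9 and 100.3, against 79.6 and 73.0 in oidia (log2 fold change 0.40, SE 0.08). The direction then turned: CC1G_10326 stood at 3.98 and 2.89 in hyphae and 22.5 and 20.8 in oidia (log2 fold change -2.63, SE 0.19).

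Beside the cys row chr12:1989899-1990951 the change fell with each region in turn. The row itself was higher in hyphae, with 56 and 31 reads against 7 and 12 in oidia (log2 fold change 1.37, SE 0.39). The nearest region, the orphan CC1G_10239, was higher in hyphae at 45.1 and 43.7 against 15.8 and 19.1 (log2 fold change 1.36, SE 0.14). The paralogous CC1G_10240 stood at 57.7 and 50.2 in hyphae and 211.2 and 205.0 in oidia (log2 fold change -1.94, SE 0.08), and CC1G_10241 had a log2 fold change of -2.50 (SE 0.29). The last of the run, the orthologous CC1G_10242 (chr12:1996324-1997278), had 2 reads in each hyphal library and 239 and 154 in oidia (log2 fold change -7.30, SE 0.31). Of these 4 regions the first was thus high in hyphae and the other 3 in oidia, with no overlap between stages in any. The 2 flanking regions on the other side had no oidia read.

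The single transposon row with the most flanking regions was the cys row chr4:3367276-3368077, with 12. Of these, 9 had between 0 and 3 reads in hyphae and none in oidia. The reads lay at 1 end: CC1G_04111 had 22 and 5 hyphal and 5 and 3 oidia reads, CC1G_04112 had 10 and 8 against 34 and 20 (log2 fold change -2.36, SE 0.42), and CC1G_04113, the orthologous region farthest out, had levels of 81.1 and 84.8 in hyphae and 22.9 and 20.8 in oidia (log2 fold change 1.92, SE 0.10). The 2 tested neighbours therefore differed between the stages in opposite directions.

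Other strong falls lay beside other transposon rows. CC1G_12399 (chr4:753952-755474, orthologous) had levels of 8.27 and 8.58 in hyphae and 1115 and 1028 in oidia, with a log2 fold change of -6.99 (SE 0.10). The orphan CC1G_10727 on the same chromosome stood at 1.75 and 2.60 in hyphae and 78.0 and 81.7 in oidia (log2 fold change -5.20, SE 0.26). CC1G_09580, a paralogous region on chromosome 11, had 11 and 4 hyphal reads and 101 and 76 oidia reads (log2 fold change -4.33, SE 0.32, and -4.97 without hyphae replicate 1). The 7 regions named for their fall were picked among called regions without overlap between stages. That their oidia libraries lay above the hyphal ones follows from this rule. Their adjusted p was at most 8.22e-42 (edgeR, Benjamini-Hochberg). Beside the Dileera transposase row on chromosome 9, the orphan CC1G_03479 fell as well, from 83.8 and 73.8 in oidia to 7.22 and 6.16 in hyphae (log2 fold change -3.55, SE 0.14).

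**Figure D4:**
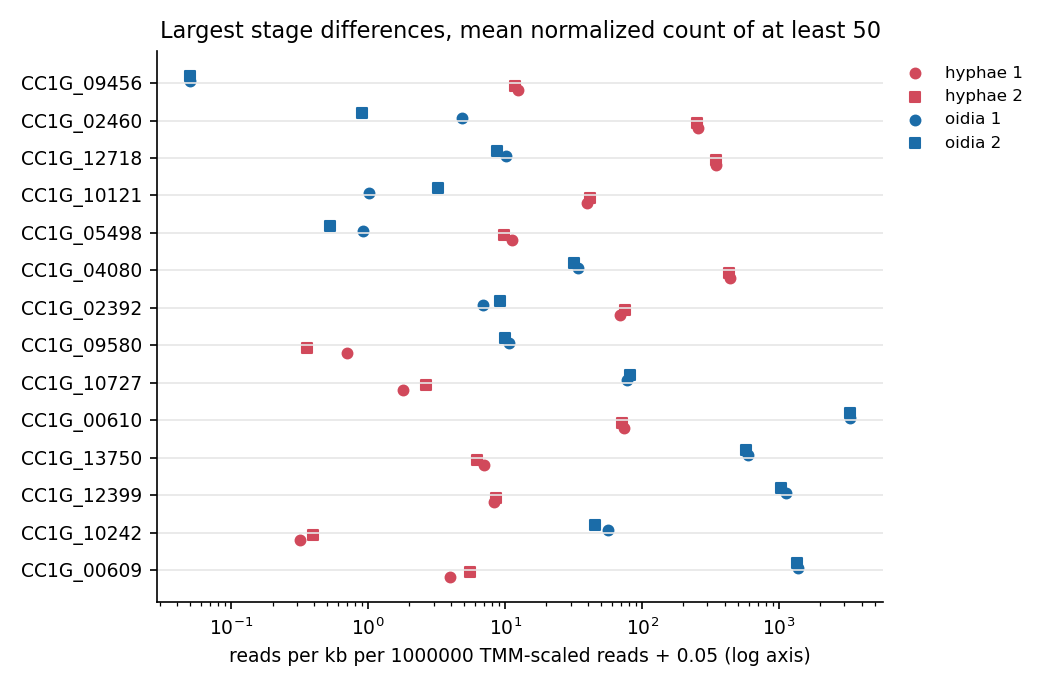
Level in each library (x axis, reads per kb per 1000000 TMM-scaled reads plus 0.05, logarithmic) of the 14 flanking regions with the largest called stage differences, 7 each way, among those with a mean normalized count of at least 50 (y axis), red for hyphae and blue for oidia, circles for replicate 1 and squares for replicate 2. The libraries of a stage lie close together for most regions, and the stages do not overlap because the regions were picked for that. CC1G_00610 reaches 3308 in oidia and CC1G_04080 reaches 436.1 in hyphae.

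Among called flanking regions with a mean normalized count of at least 50 and no overlap between stages, the 7 strongest rises in hyphae were spread over 6 chromosomes; CC1G_10318 and CC1G_10322, described above, had fewer reads. CC1G_09456, a paralogous region at chr6:1727787-1731216, had 335 and 243 reads in hyphae and none in oidia, which is at least 111-fold higher in hyphae against a floor of 3 reads over the oidia libraries. Its neighbour CC1G_09457, also paralogous, had 133 and 92 reads against none, at least 43.1-fold higher. These 2 regions had the most hyphal reads of the 243 that were read in hyphae alone, and the next, the paralogous CC1G_13036 on chromosome 4, had 12 and 18. CC1G_02460, a paralogous region of 330 bp on chromosome 9, had levels of 257.0 and 252.6 in hyphae and 4.79 and 0.852 in oidia (log2 fold change 6.36, SE 0.23, with 8.13 without oidia replicate 1 and 5.71 without oidia replicate 2). CC1G_12718 (chr4:1050479-1051286, orthologous) stood at 347.8 and 346.1 in hyphae and 10.1 and 8.70 in oidia (log2 fold change 5.19, SE 0.13). It was the second highest flanking region in hyphae. The highest was the orphan CC1G_04080 (chr4:3296812-3297352), at 436.1 and 432.6 against 33.8 and 31.7 (log2 fold change 3.72, SE 0.11). CC1G_10121 on chromosome 1 had 221 and 177 reads against 3 and 8 (log2 fold change 4.35, SE 0.30), a value that moved to 3.66 if oidia replicate 1 was left out and to 5.35 if oidia replicate 2 was. CC1G_05498 on chromosome 11 had 204 and 139 against 9 and 4 (3.90, SE 0.30) and CC1G_02392 on chromosome 3 had 1403 and 1172 against 79 and 84 (3.18, SE 0.11). By that choice the hyphal libraries lay above the oidia ones in the 7 regions named for their rise. Their adjusted p was at most 2.87e-38 (edgeR, Benjamini-Hochberg).

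CC1G_02392 flanks a Dileera transposase row, chr3:3333207-3336353, that was itself higher in hyphae, at 6.99 and 5.89 against 1.43 and 1.34 in oidia (log2 fold change 2.22, SE 0.25). The regions at both edges of that row were higher too, the orphan CC1G_02393 at 531 bp (log2 fold change 2.21, SE 0.35, and 2.93 without oidia replicate 2) and the paralogous CC1G_02395 at 409 bp (1.17, SE 0.11). The outermost tested regions were CC1G_02391 (-0.06, edgeR with Benjamini-Hochberg, adjusted p = 0.572) and CC1G_02397 (-0.26, SE 0.07), and the latter turned to 0.0043 with upper-quartile factors. CC1G_05498, by contrast, lies 1089 bp from a TET/JBP row, chr11:1474589-1475961, that had 2 reads in each hyphal library and 19 and 13 in oidia (log2 fold change -3.70, SE 0.63). The TET/JBP row was thus low in hyphae where the flanking region was high.

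Of the 240 transposon rows, 9 had both flanking regions and enough reads of their own to test. Around them 43 flanking regions were tested, with 19 of them higher in hyphae and 20 lower, where 44.1% and 40.0% of all tested gene regions were. The Kyakuja transposase row on chromosome 11 had levels of 9.56 and 8.57 in hyphae and 9.80 and 9.28 in oidia, with 4 flanking regions higher and 3 lower. One of these, CC1G_09581, a paralogous region of 292 bp, was among the 5 highest levels in both stages, at 339.3 and 309.2 in hyphae and 361.6 and 375.5 in oidia; its log2 fold change of -0.18 turned to 0.09 with upper-quartile factors. Around the Dileera transposase row on chromosome 10, CC1G_11042 was higher in hyphae (1.64, SE 0.11) and CC1G_11046, 531 bp from the row, lower (-0.85, SE 0.13), a direction that turned to 0.70 with total gene counts. Around the cys row on chromosome 2, CC1G_10675 was higher (1.52, SE 0.16) and CC1G_10676 lower (-2.24, SE 0.13). That row itself had 8 and 2 hyphal reads and 33 and 23 oidia reads (log2 fold change -3.25, SE 0.47).

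The 5 tested regions closest to a transposon row include CC1G_10322 at 146 bp and CC1G_00606 at 216 bp, described above, of which the latter had a log2 fold change of -0.02 (edgeR with Benjamini-Hochberg, adjusted p = 0.891). The other 3 were higher in hyphae. CC1G_09552, 249 bp from its row, had 274 and 226 hyphal reads and 69 and 52 oidia reads (log2 fold change 1.25, SE 0.16). CC1G_12720, at 366 bp, stood at 27.1 and 18.2 against 10.6 and 10.4 (1.13, SE 0.23). CC1G_14681, an orphan at 290 bp, had 36 and 17 reads against 3 and 4 (2.08, SE 0.55), a call lost without hyphae replicate 1 (edgeR with Benjamini-Hochberg, adjusted p = 0.114).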

How the data were processed

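Per the labels' protocols, poly(A)-selected RNA was sequenced. The authors deposited read counts per gene, gene region and genomic element in each library, and these counts were used as deposited. The tools were Bowtie 0.12.7, TopHat and DESeq, per the submitters' processing notes. The sources used here do not give the counter, its strand and multimapping settings or the build, so reads of overlapping, antisense or near-identical rows cannot be separated. Of the 13236 gene regions, 10263 matched a RefSeq gene (assembly CC3) to within 3 bases at both ends. No column of per-sample values was left unused (0). No genome sequence was used here, so no sequence is shown.

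Libraries were grouped by the stage in their titles. Region and element rows were fitted together with edgeR 4.0.16 in R 4.3.3 (glmQLFit and glmQLFTest), with library sizes and TMM factors (1.71, 1.70, 0.589 and 0.580 for hyphae 1 and 2 and oidia 1 and 2) from the gene rows, since element rows overlap genes. The low-count filter was filterByExpr on the TMM-scaled sizes, and p-values were adjusted by Benjamini-Hochberg over all 9622 rows tested, 9576 of them gene regions. Standard errors are approximate, being the fold change over the root of the F statistic. Of 90 called flanking regions whose bounds match a gene, 88 were called in the same direction when the gene's own row was tested. Such a row covers nearly the same bases and holds mostly the same reads, so this is no independent check. Intervals and floors cover counting error only, since reads had no molecular identifiers.

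Counts of replicates varied beyond sampling noise, with a chi-square per degree of freedom of 1.28 in hyphae and 3.63 in oidia. Simulated counts for 4 libraries of these sizes (9500 rows tested) were used to test the fit. Of the tested rows, 21 of 35 changed 1.5-fold were recovered, 20 of 32 changed 2-fold, 34 of 38 changed 4-fold and 30 of 30 changed 8-fold. There were 6 false among 111 calls. Only 50 rows were changed at each fold, both stages had the same spread, and the scaling factors were known. In the data 8055 of 9576 tested gene regions were called, so these rates do not carry over to the stage comparison.

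The flanking regions, groupings and rules were chosen with earlier results of these data known. Flanking regions were named if their adjusted p was under 0.05, their mean normalized count at least 50 and their stages without overlap (the 7 largest changes each way), and further for being the 5 tested regions nearest to a row, the 5 highest in a stage, the 3 with most reads in 1 stage and none in the other, beside a tested transposon row, or at the row with the most flanking regions. Those just inside and outside the distance limit are named apart from this rule. The clusters and the scaled ratios of reads in weak regions were chosen after the data were seen. Gene lists by function could not be evaluated. Alternatives were other scalings, DESeq2 1.42.0, other filters, distances and members, the replicate number as a block and leaving out each library.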

Additional observations from a re-analysis of the deposited data

How the results depend on the processing

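The counts of flanking regions higher and lower in hyphae (55 and 59) were within 1.5 times of these with DESeq2 size factors, upper-quartile factors, the DESeq2 Wald test, other filters, gene rows added to the fit and rows near ends and centromeres kept. With total gene counts they were 87 and 35. With flanks of 5000, 2000 and 20000 bp they were 31 and 19, 14 and 6, and 146 and 141, over fewer or more regions. The split moved too, with 62.0%, 70.0% and 50.9% of these calls upward, against 48.2% with 10000 bp. Without regions overlapping a repeat row the counts were 26 and 33. Leaving out each library gave 49 to 62 higher and 53 to 59 lower. The regions with enough reads to test (133) became 412 with no filter, 87 with a mean count of at least 50, 59, 26 and 335 with those flanks, 69 without repeat overlaps, and 135 to 147 without 1 library. The median of -0.03 moved to -0.11 with DESeq2 size factors, 0.24 with upper-quartile factors, 1.52 with total gene counts, 2.14 with no filter, 0.40 with the filter on unscaled sizes (added after the data were seen), 0.43, 0.63 and 0.10 with those flanks, -0.10 with ends and centromeres kept, and from -0.059 to 0.16 without 1 library; the cause was not tested.

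With the replicate number as a block 52 were higher and 58 lower (median -0.03). Same-numbered libraries did not deviate together (r = -0.0032). With 2 libraries per stage each row gives 1 difference per stage, so this value cannot show whether they share a culture or batch. For the 56 named regions tested, 664 of 711 alternative values kept the direction and side of the threshold. Directions turned with upper-quartile factors for CC1G_00606 (0.25), CC1G_00611 (0.051), CC1G_09581 (0.087), CC1G_02391 (0.20), CC1G_02397 (0.0043) and the Kyakuja transposase on chromosome 11 (0.20). With total gene counts they turned for CC1G_00606 (1.52), CC1G_00611 (1.33), CC1G_11044 (0.92), CC1G_11046 (0.70), CC1G_09581 (1.37), CC1G_05499 (1.17), CC1G_10674 (0.60), CC1G_02391 (1.48), CC1G_02397 (1.29), CC1G_10328 (0.88), CC1G_15196 (0.56), and the transposases on chromosomes 1 (0.063), 9 (1.19), 10 (1.26) and 11 (1.48). Without 1 library values ranged across 0 for CC1G_00606 (-0.16 to 0.12), CC1G_02391 (-0.20 to 0.10), and the transposases on chromosomes 10 (-0.59 to 0.035) and 11 (-0.12 to 0.014). At this depth 353 flanking regions had too few reads to test.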

Other observations

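Median lengths of flanking regions were below those of other gene regions in the paralogous and orphan classes and above them in the orthologous class. The median length was 1261 bp against 1449 bp for paralogous regions, 813 bp against 1080 bp for orphans and 2377 bp against 1659 bp for orthologous regions. Of the 2 flanking regions read in oidia alone, the paralogous CC1G_07243 on chromosome 6 had 3 reads in each oidia library and the orphan CC1G_09821 on the same chromosome had 1 read in oidia 2.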
